A study of Homo sapiens with 12 samples.

Results

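The unstimulated state of LNCaP-S14 cells was read from the 2 vehicle samples of the study, called here vehicle sample 1 and vehicle sample 2, out of 10 samples in 5 groups. LNCaP is an androgen-sensitive human line grown from a prostate adenocarcinoma, and LNCaP-S14 carries in addition a stably overexpressed SKP2, the substrate-binding subunit of a ubiquitin ligase that marks the cell cycle inhibitor p27 for destruction. The cells were kept in RPMI with fetal bovine serum and received the solvent DMSO for 24 h. The labels give the line as LNCaP. The S14 subline and the duration for this group come from the study's methods, and whether S14 is a single clone is not given in the sources used here. RNA was hybridised to Illumina bead arrays with 24526 probes, 1 array per sample. No parental LNCaP sample was among the groups, and the groups given SMIP004, bortezomib, camptothecin or roscovitine entered only the joint normalization of the 12 arrays.

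Prostate glands are lined by luminal secretory cells, which rest on basal cells and are surrounded by smooth muscle, fibroblasts, vessels and scattered neuroendocrine cells. Luminal cells depend on the androgen receptor, a steroid-activated transcription factor that drives the genes of secreted proteases such as prostate-specific antigen with the help of the pioneer factor FOXA1. They are also known for an unusual metabolism, in which zinc accumulates and citrate is secreted, and prostate tumours are known for high lipid synthesis.

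A gene was called detected when at least 1 probe named for it alone had a detection p under 0.01 on both vehicle arrays. This p compares a probe's intensity with those of the negative control beads of the same array. By this rule 7439 of 16922 named genes were detected, which is 44% of them and the share against which every list below is read at this limit. A further 428 genes were detected on 1 array, 1 gene was detected by a different probe on each array, and 9054 were detected on neither. List counts at other limits are to be read against other totals. Of the same 16922 genes, 9438 were detected at a detection p under 0.05 and 6436 at a detection p under 0.001. The levels are log2 values after background correction and quantile normalization. Over detected genes they had a median of 9.14 and an interquartile range of 7.92 to 10.58, and the lowest and highest were 576-fold apart. The 2 arrays were similar in brightness, with mean intensities of 647 and 802 and with 9799 and 9339 probes detected.

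**Figure D1:**
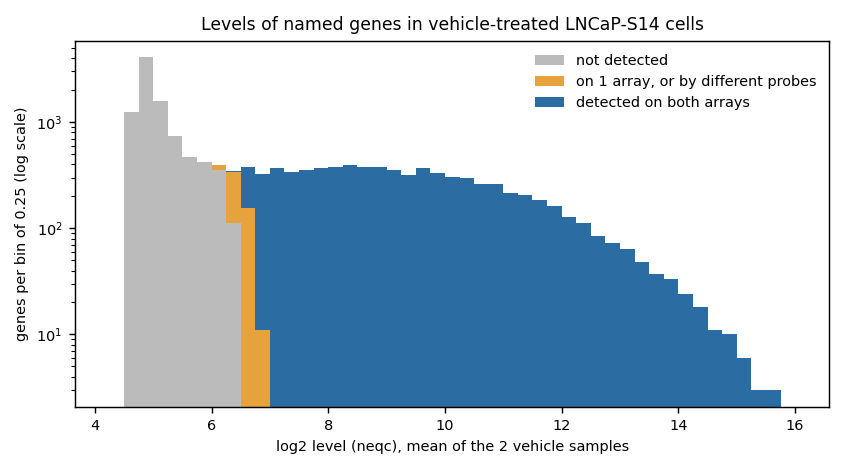
Number of named genes (y axis, log scale) by log2 level (x axis, mean of the 2 vehicle samples, bins of 0.25), stacked by detection status, with Y-linked genes and XIST left out. Genes that were not detected pile up near a log2 level of 4.93, the median of undetected genes on each array, and detected genes spread from about 6.5 upward with a median of 9.14.

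A level is the brightness of 1 probe and depends on that probe as well as on the transcript. Where a gene had several detected probes (910 genes), its brightest and dimmest differed by a median of 1.44 on the log2 scale, while the same genes differed by a median of 0.103 between the 2 samples. The order of genes given below is therefore an order of signal. A gene that was not detected is one whose probes did not stand above the negative controls, which does not show that its RNA was absent. RPL10 and RPL37, structural proteins of every ribosome, had no detected probe in either sample. Fewer cells of a type and less RNA per cell cannot be told apart in such bulk RNA.

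The brightest genes were those of the translation machinery, the cytoskeleton and energy metabolism. RPL41, a ribosomal protein, gave log2 levels of 15.70 in sample 1 and 15.59 in sample 2, and EEF1A1, the elongation factor that brings aminoacyl-tRNA to the ribosome, gave 15.64 and 15.54. Of the 30 highest genes, 12 encoded cytosolic ribosomal proteins (RPL41, RPS16, RPS12, RPS29, RPLP2, RPS15, RPL19, RPS27, RPLP1, RPL38, RPL10A and RPS25), and of the 100 highest, 30 did. The others among the 30 included TPT1, the translationally controlled tumour protein, the initiation helicase EIF4A1, OAZ1, the antizyme that limits polyamine synthesis, and the cytoskeletal genes TUBA1B, ACTG1 and PFN1. Subunits of ATP synthase and cytochrome oxidase (ATP5F1B, ATP5F1A and COX4I1), the histone variant H3-3A and the ciliary protein CLUAP1 also belonged to this group.

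Metabolic enzymes and a receptor were also among the 30. FASN, which builds palmitate from malonyl-CoA, ranked 14th with log2 levels of 15.02 and 14.94. MDH2, the malate dehydrogenase of the mitochondrial matrix, had log2 levels of 14.69 and 14.77, and LDHA, which reduces pyruvate to lactate, had 14.57 in both samples. F2R, the thrombin receptor PAR1, had log2 levels of 14.72 and 14.81. No kallikrein and no keratin was among the 100 highest genes.

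The names of 2 of the 30 genes are uncertain guides to what was measured. LAIR1, an inhibitory receptor of leukocytes, gave log2 levels of 15.59 and 15.36 with its only probe, while 16 of 17 leukocyte markers were not detected. SLC7A5P2 is a pseudogene of the amino acid transporter gene SLC7A5, and 1 of its probes gave log2 levels of 15.20 and 15.16 while the second stayed near background at 4.91 and 5.05. The signal of a pseudogene's probe can come from its parent gene, and what these 2 probes bind was not tested.

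The luminal programme was on. Of 33 measured luminal and secretory genes 20 were detected (60.6%), and the brightest lay among the top few percent of all genes. FOXA1 had log2 levels of 13.65 and 13.70, and KLK4, a secreted kallikrein protease, had 13.47 and 13.52. TMPRSS2, the androgen-driven membrane protease whose promoter is fused to ETS genes in many prostate tumours, had log2 levels of 12.81 and 12.77. These 3 genes had brighter signals than 99.3%, 99.1% and 98.1% of all named genes in that order. SLC45A3 (prostein) followed with log2 levels of 12.29 and 12.74, FOLH1, the prostate-specific membrane antigen, with 12.10 and 11.95, and the metalloreductase STEAP2 with 12.01 and 12.04.

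Other luminal genes were detected at middle levels. KRT8, the keratin of simple epithelia, had log2 levels of 10.40 and 10.29, and HOXB13, the homeobox factor of the posterior body and prostate, had 10.28 and 9.99. MSMB (beta-microseminoprotein), ACP3 (prostatic acid phosphatase), the cold channel TRPM8 and the racemase AMACR were also detected. AMACR differed more between the samples than most, with log2 levels of 9.81 and 9.21. TGM4, the prostate transglutaminase, was not detected, with log2 levels of 4.91 and 5.10.

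The best known luminal product had the lowest signal of the detected luminal markers in the plot of marker genes. KLK3, which encodes prostate-specific antigen, had log2 levels of 6.78 and 7.42 with detection p-values of 0.00602 and 0, close to the threshold in sample 1. KLK2, its nearest relative, had log2 levels of 7.67 and 7.98. KLK3 was read by 1 probe, assigned to 1 of the 3 RefSeq transcripts of the gene, and the probes of KLK2 and KLK4 were each assigned to 1 of 5 and 1 of 4 transcripts. KRT18, the partner keratin of KRT8, stood just outside the threshold, with log2 levels of 5.97 and 6.17 and detection p-values of 0.0196 and 0.0136. EPCAM, an adhesion molecule of epithelia, lay just inside with log2 levels of 6.37 and 6.94.

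**Figure D2:**
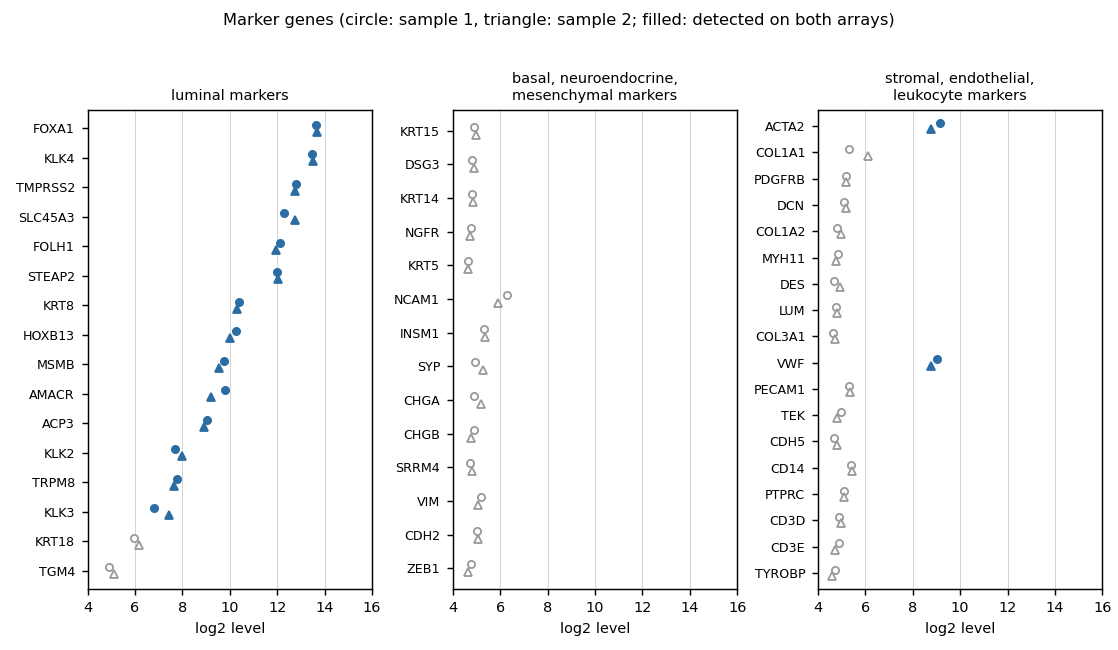
Log2 level (x axis) of marker genes in vehicle sample 1 (circles) and sample 2 (triangles), with filled symbols for genes detected on both arrays and open symbols for the rest. Luminal markers range from FOXA1 near 13.65 down to undetected KRT18 and TGM4, whereas ACTA2 and VWF are the only filled symbols among the key markers of other cell types plotted. Detected members of those lists that are not key markers (SYT4, DDC, PDGFRA, TWIST1, ITGA5, FOXC2 and CD68) are not shown.

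The kallikrein genes form a cluster of 15 adjacent serine protease genes on chromosome 19, and detection within it was in 1 block at the threshold used. Counted along the chromosome in RefSeq, places 2 to 5 (KLK15, KLK3, KLK2 and KLK4) were detected in both samples, while place 1 (KLK1) and places 6 to 15 (KLK5 to KLK14) were not. KLK15 had log2 levels of 7.95 and 7.74. The 4 detected genes are 26.7% of the cluster, below the 44% of all genes. The block depends on the threshold. At a detection p under 0.05 there were 6 detected genes in the cluster. At a detection p under 0.001 there were 3, and KLK3, with 0.00602 in sample 1, lost its call. KLK4 gave the brightest signal of the block, which, between different probes, gives no order of transcripts.

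The bases upstream of 3 of these genes are shown because androgen control of KLK3 and KLK2 is known to act through an element close to the start site. They are the 250 bases before the start in RefSeq (GRCh38.p14), written 5′ to 3′ on the gene's own strand, from chr19:50910739-50910988, minus strand for KLK4, from chr19:50873189-50873438, plus strand for KLK2 and from chr19:50854665-50854914, plus strand for KLK3. Capitals mark the longest stretch shared by KLK3 and KLK2 that overlaps the androgen receptor half-site of KLK3, whose first base lies just before it.
KLK4: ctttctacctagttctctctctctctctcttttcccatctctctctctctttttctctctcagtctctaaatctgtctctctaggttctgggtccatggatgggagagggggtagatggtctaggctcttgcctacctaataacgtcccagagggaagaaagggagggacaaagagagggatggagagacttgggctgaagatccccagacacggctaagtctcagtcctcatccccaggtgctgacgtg
KLK2: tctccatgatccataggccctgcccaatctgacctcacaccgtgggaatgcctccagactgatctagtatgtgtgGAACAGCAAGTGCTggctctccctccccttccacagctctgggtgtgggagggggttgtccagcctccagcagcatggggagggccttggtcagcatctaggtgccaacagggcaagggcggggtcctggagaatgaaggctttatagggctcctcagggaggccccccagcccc
KLK3: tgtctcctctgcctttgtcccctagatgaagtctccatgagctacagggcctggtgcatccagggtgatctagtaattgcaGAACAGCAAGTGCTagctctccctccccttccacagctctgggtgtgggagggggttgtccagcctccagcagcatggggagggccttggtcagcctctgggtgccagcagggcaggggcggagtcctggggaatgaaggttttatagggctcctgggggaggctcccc
The shared stretch is 14 bases long and lies from 169 to 156 bases before the start in KLK3 and from 175 to 162 before it in KLK2. It was chosen because KLK2 and KLK3 share it, so its presence in both is no result. Among 13567 promoters of named genes searched on both strands, none besides theirs held it. An exact match of 14 bases is rare among unrelated promoters, so this absence was largely fixed by the length and is no result either. The letters that follow it are also largely the same in KLK2 and KLK3, so the stretch is not their only likeness. The half-site AGAACA, searched on both strands, begins 170 bases before the start of KLK3, was found in 10.8% of all promoters in windows of 300 bases, and was absent from these letters of KLK2 and KLK4. A match describes letters and is no measurement of binding.

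Basal cell genes were off. None of the 16 measured members was detected at the threshold used, and at a detection p under 0.05 there were 4. KRT5, the keratin that defines basal cells, had log2 levels of 4.63 and 4.65, KRT14 had 4.83 and 4.87, and KRT15 was likewise not detected. NGFR, a neurotrophin receptor of basal cells, and DSG3, a desmosomal cadherin, were at 4.79 and 4.71 and at 4.81 and 4.88. These values are those of undetected genes in general, whose median was 4.93 on each array.

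The neuroendocrine list had 2 of 23 genes detected (8.70%), or 5 at a detection p under 0.05. Its defining secretory proteins CHGA and CHGB, the synaptic vesicle protein SYP, the adhesion molecule NCAM1 and the regulators INSM1 and SRRM4 were not detected. The exceptions were bright. SYT4, a synaptotagmin of secretory vesicles, had log2 levels of 12.67 and 13.09, and DDC, the decarboxylase that makes dopamine and serotonin, had 12.11 and 11.79. DDC is also known as a coactivator of the androgen receptor.

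Markers of other cell types were mostly undetected. Of 20 fibroblast and smooth muscle genes 2 were detected, or 1 at a detection p under 0.001, and the collagen genes COL1A1, COL1A2 and COL3A1, the matrix proteins DCN and LUM, the contractile genes MYH11 and DES and the receptor PDGFRB were not. ACTA2, smooth muscle actin, was detected at log2 levels of 9.15 and 8.77, and PDGFRA at 7.17 and 7.01. Of 12 endothelial genes VWF alone was detected, at log2 levels of 9.03 and 8.77, while PECAM1, CDH5 and TEK were not, and 2 were detected at a detection p under 0.05. Among 17 leukocyte genes PTPRC, CD3D, CD3E, CD14 and TYROBP were not detected, and CD68, a lysosomal protein, was detected at log2 levels of 7.48 and 7.34, with 3 genes of the list detected at a detection p under 0.05.

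Of 27 genes typical of other organs, TTR, the thyroid hormone carrier of liver and choroid plexus, was detected at log2 levels of 8.95 and 8.89, and MBP, named for myelin, at 10.90 and 10.73. ALB, CDX2, SFTPC, NKX2-1, UPK2 and INS were not detected. Whether the few detected markers of other tissues reflect their transcripts or other RNA bound by their probes was not tested.

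Epithelial adhesion genes were mostly detected and mesenchymal markers mostly not. Of 33 epithelial adhesion and polarity genes 21 were detected (63.6%). CDH1, epithelial cadherin, had log2 levels of 12.78 and 12.87, JUP (plakoglobin) had 11.81 and 11.88, and GRHL2, a regulator of epithelial junction genes, had 9.90 and 10.17. The claudin CLDN3 was detected and CLDN4 was not. On the mesenchymal side 3 of 15 genes were detected, and VIM (vimentin), CDH2 (neural cadherin) and ZEB1, a repressor of CDH1, were not, with log2 levels of 5.21 and 5.09, 5.04 and 5.08, and 4.76 and 4.66. The 3 that were detected were TWIST1, ITGA5 and FOXC2, with TWIST1 at log2 levels of 8.06 and 8.02.

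Positional and structural gene families were used sparsely. Of 29 HOX genes 5 were detected, all from the posterior end of their clusters apart from HOXC6, which was the brightest with log2 levels of 11.29 and 11.23. The others were HOXB13, HOXD13, HOXD12 and HOXC13. Of 48 keratins 2 were detected, KRT8 and KRT10, and KRT19 and KRT23 were detected on the array of sample 1 only. At a detection p under 0.05 there were 9 HOX genes and 7 keratins.

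**Figure D3:**
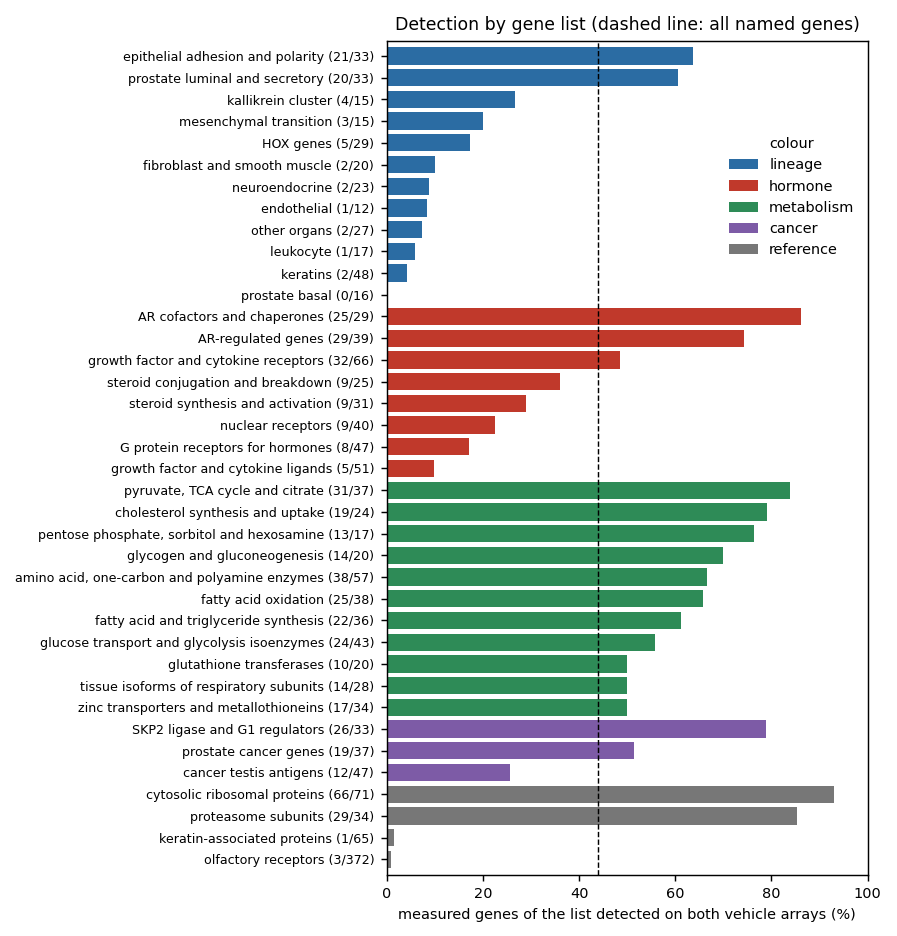
Share of the measured genes of each list that was detected on both vehicle arrays (x axis, percent), with detected and measured genes in brackets, bars coloured by class and a dashed line at 44%, the share over all named genes. Ribosomal, cofactor, proteasome and TCA cycle genes lie far to the right of the line, and basal, leukocyte, keratin and olfactory receptor genes far to the left.

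The genes that the androgen receptor works with or acts on were largely on. Of 29 cofactor and chaperone genes 25 were detected (86.2%), and of 39 androgen-regulated genes 29 (74.4%). The receptor gene itself was not analysed here. Among cofactors, HSP90AA1 and HSPA8, chaperones that hold the receptor in a hormone-binding form, had log2 levels of 14.59 and 14.47 and of 14.41 and 14.38. The coactivator NCOA4 had log2 levels of 12.97 and 12.99, and the pioneer factor GATA2 had 9.66 and 10.05. FKBP5, a cochaperone that is itself androgen-induced, had log2 levels of 9.79 and 10.08. The coactivator NCOA2 was not detected, with log2 levels of 5.51 and 6.02.

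Androgen-regulated genes spanned the whole range of signal. DBI, the acyl-CoA binding protein, had log2 levels of 13.57 and 13.68, and ABCC4, an organic anion exporter, had 12.20 and 12.37. NDRG1, a differentiation gene, was at 8.77 and 8.82 and the phosphatase INPP4B at 8.28 and 8.32. CAMKK2, a kinase upstream of AMPK, was detected on the array of sample 1 only, at log2 levels of 6.76 and 6.39. Undetected members included AZGP1, STEAP4 and TPD52.

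Nuclear receptors as a family were mostly off, with 9 of 40 detected (22.5%), or 18 at a detection p under 0.05. The brightest was RXRA, the common partner of many receptors, with log2 levels of 10.87 and 10.88, followed by NR2F6, ESRRA, NR1H3, NR3C2 and RARA. NR3C2, the mineralocorticoid receptor, had log2 levels of 9.41 and 8.94. Steroid receptors other than this were not detected. The glucocorticoid receptor NR3C1 had log2 levels of 4.95 and 4.82, the oestrogen receptors ESR1 and ESR2 had 4.78 and 4.77 and 5.08 and 4.96, and the progesterone receptor PGR had 4.85 and 4.77. VDR, the vitamin D receptor, was detected on 1 array, and NR5A1, the regulator of steroid-making tissues, on neither.

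Genes for making androgens from cholesterol were mostly undetected. Of 31 genes of steroid synthesis and activation 9 were detected (29.0%), or 15 at a detection p under 0.05. STAR, which moves cholesterol into mitochondria, CYP17A1, which makes androgen precursors, HSD3B1 and HSD3B2, HSD17B3, AKR1C3, SRD5A2 and the aromatase CYP19A1 were not detected. CYP17A1 had log2 levels of 4.79 and 4.76 and STAR 4.76 and 4.77. SRD5A1, one of the reductases that turn testosterone into dihydrotestosterone, was detected at 8.20 and 8.18. CYP11A1, the side-chain cleavage enzyme, was detected near the threshold at log2 levels of 6.95 and 6.70. The brightest were AKR1D1, a steroid 5-beta reductase that is chiefly a liver enzyme, at log2 levels of 13.07 and 12.99, and the mitochondrial cholesterol-binding protein TSPO.

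UGT2B enzymes, some of which inactivate androgens by attaching glucuronic acid, stood out within their list. Of 25 genes of steroid conjugation and breakdown 9 were detected (36.0%), below the 44% of all genes, and 6 of the 9 were UGT2B enzymes. UGT2B7 had log2 levels of 12.92 and 12.79, and UGT2B11 had 12.22 and 11.82. UGT2B15 and UGT2B17, which conjugate dihydrotestosterone, had log2 levels of 11.06 and 10.40 and of 11.17 and 10.30. UGT2B28 and UGT2B10 were detected as well. These genes are near-identical in sequence, so the share of each in the signal is uncertain. HSD11B2, which inactivates cortisol, had log2 levels of 8.90 and 8.95, and UGDH, which makes the glucuronic acid donor, had 10.72 and 10.43.

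**Figure D4:**
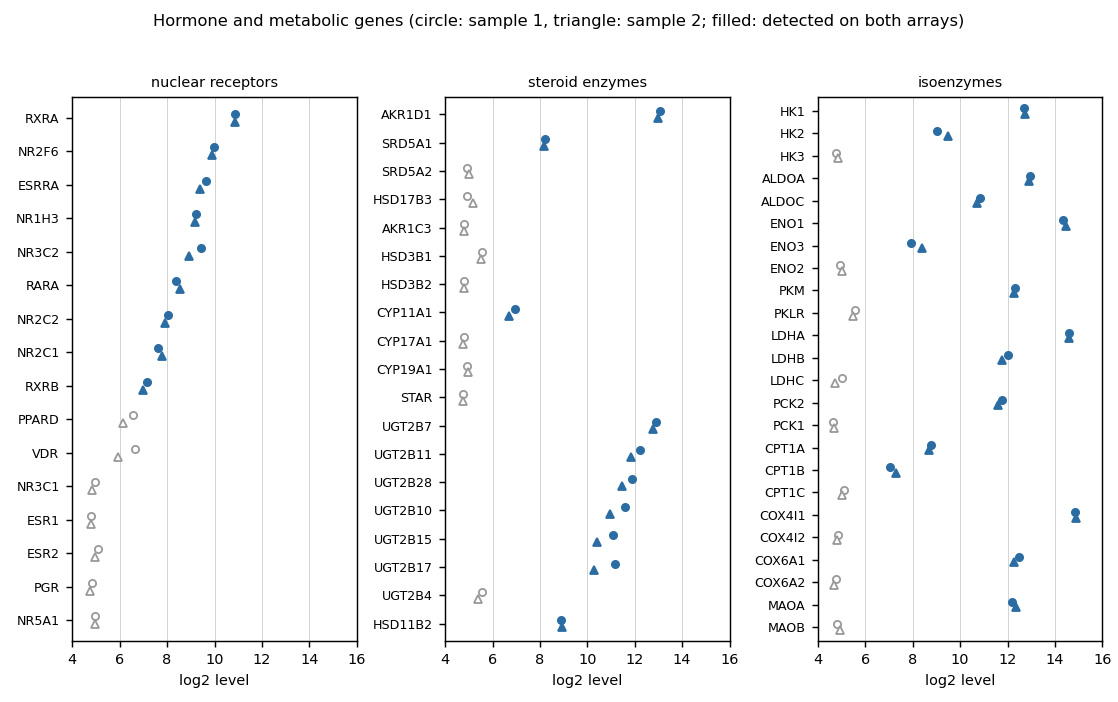
Log2 level (x axis) of nuclear receptors, steroid enzymes and metabolic isoenzymes in vehicle sample 1 (circles) and sample 2 (triangles), filled where detected on both arrays. RXRA leads the receptors near 10.87 while NR3C1, ESR1, ESR2, PGR and NR5A1 are open, 6 UGT2B genes are filled while CYP17A1 and STAR are open, and isoenzymes of 1 reaction split into filled and open symbols.

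Receptors for growth factors and cytokines were detected at about the rate of all genes, 32 of 66 (48.5%). Among receptor tyrosine kinases ERBB2 had log2 levels of 10.53 and 10.33, ERBB3 had 9.54 and 9.75 and EGFR had 8.65 and 8.67. MET, AXL, IGF1R, TGFBR2 and IL6ST, the signalling chain of the interleukin 6 receptor, were not detected. MET had log2 levels of 5.18 and 4.97. IGF2R, which clears insulin-like growth factor 2, was the brightest of the list at 11.59 and 11.60.

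G protein-coupled receptors and secreted ligands were sparse, at 8 of 47 and 5 of 51 genes, or 14 and 16 at a detection p under 0.05. VIPR1, a receptor for vasoactive intestinal peptide, had log2 levels of 9.64 and 10.04, and the atypical chemokine receptor ACKR3 had 12.63 and 11.98. GNRHR and OR51E2, an olfactory-type receptor known from prostate, were not detected. Of ligands, MIF had log2 levels of 14.01 and 14.17 and GDF15, a stress-induced cytokine, had 10.89 and 9.84. INHBB, an activin subunit, was detected, whereas IL6 and CXCL8 were not. VEGFA stood just outside the threshold, with log2 levels of 6.28 and 6.45 and detection p-values of 0.0136 and 0.0105 for its brightest probe.

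The metabolic lists ran from 50.0% detected, near the 44% of all genes, for zinc transporters and metallothioneins, tissue forms of respiratory subunits and glutathione transferases, to 83.8% for the pyruvate and TCA cycle list. In the glucose transport and glycolysis list 24 of 43 genes were detected (55.8%). GAPDH had log2 levels of 14.47 and 14.45 and ENO1 14.33 and 14.45. Of hexokinases, HK1 had 12.69 and 12.72 and HK2 9.01 and 9.47, while HK3 was not detected. The muscle enolase ENO3 (log2 levels of 7.92 and 8.40), the brain aldolase ALDOC, ALDOA, PKM and LDHB were detected. The neuronal enolase ENO2 and the liver pyruvate kinase PKLR were not. The transporter SLC2A1 had log2 levels of 9.84 and 9.85. SLC2A12 was detected on 1 array, and PFKFB2 was the gene detected by a different probe on each array.

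Gluconeogenesis was incomplete at the level of detection. PCK2, the mitochondrial phosphoenolpyruvate carboxykinase, had log2 levels of 11.75 and 11.58, but its cytosolic counterpart PCK1, the fructose bisphosphatase FBP1 and the glucose phosphatase G6PC1 were not detected. PCK1 had log2 levels of 4.62 and 4.67. Glycogen enzymes such as GYG1 (12.15 and 12.31) made up most of the 14 of 20 detected genes. In the pentose phosphate and hexosamine list 13 of 17 were detected, led by TALDO1 at log2 levels of 13.93 and 13.69, with UAP1, which makes the activated sugar UDP-N-acetylglucosamine, at 11.74 and 11.71.

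The enzymes around citrate were nearly complete, with 31 of 37 genes of the pyruvate and TCA cycle list detected (83.8%). CS, citrate synthase, had log2 levels of 13.31 and 13.23, and IDH1, the cytosolic isocitrate dehydrogenase, had 13.04 and 12.83. MPC2, a subunit of the mitochondrial pyruvate carrier, had 13.44 and 13.64. Not detected were PDHA2, the testis form of pyruvate dehydrogenase, ME3, the phosphatase PDP1 and 3 of the pyruvate dehydrogenase kinases, among them PDK4 at log2 levels of 4.84 and 4.76.

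Zinc transporters and metallothioneins were detected in 17 of 34 cases. SLC39A1, known as the main zinc importer of prostate cells, had log2 levels of 10.57 and 10.73, and SLC30A5, which loads zinc into the secretory pathway, had 11.50 and 11.50. MT2A, a metallothionein, had log2 levels of 10.57 and 11.07, and the near-identical MT1 genes cannot be told apart with certainty. SLC30A4, a vesicular zinc transporter, had log2 levels of 7.94 and 6.85 and was among the genes that differed most between the samples.

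Genes of lipid synthesis were detected from citrate to unsaturated fatty acids. Of 36 genes of fatty acid and triglyceride synthesis 22 were detected (61.1%). ACLY, which cuts citrate to acetyl-CoA, had log2 levels of 12.88 and 12.96, and ACACA, which makes malonyl-CoA, had 12.83 and 12.85. SCD, the stearoyl-CoA desaturase, had log2 levels of 13.41 and 13.31, and the elongase ELOVL5 had 11.50 and 11.53. FADS2, the delta-6 desaturase, was detected at 8.22 and 8.17. ELOVL6, which lengthens palmitate before SCD acts, was detected at log2 levels of 12.01 and 11.67. Undetected members included LPL, PLIN1, PLIN2 and DGAT2.

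Cholesterol synthesis and uptake had 19 of 24 genes detected (79.2%), with HMGCS1 at log2 levels of 11.32 and 11.45 and SQLE, the squalene epoxidase, at 11.11 and 11.28. Fatty acid oxidation had 25 of 38 (65.8%). Of the carnitine palmitoyltransferases that admit fatty acids to mitochondria, CPT1A had log2 levels of 8.75 and 8.68 and CPT1B 7.05 and 7.28, and CPT1C was not detected. None of the 7 measured fatty acid binding proteins (FABP1 to FABP7) was detected.

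Amino acid, one-carbon and polyamine enzymes were detected in 38 of 57 cases (66.7%). PHGDH, the first enzyme of serine synthesis, had log2 levels of 14.44 and 14.32, and SHMT2, the mitochondrial serine hydroxymethyltransferase, had 13.11 and 13.16. ODC1, the first enzyme of polyamine synthesis, had log2 levels of 13.32 and 13.43, and SMS, spermine synthase, 11.78 and 11.96. Prostate is known for its secretion of spermine. MAT2A was detected and its liver form MAT1A was not, and likewise ARG2 but not ARG1 and MAOA but not MAOB. MAOA had log2 levels of 12.17 and 12.36. ASS1 was detected at 7.54 and 7.64, whereas GLUL, glutamine synthetase, was not.

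Subunits of the respiratory chain that come in tissue forms showed the general form on and the muscle or lung form off. COX4I1 (log2 levels of 14.83 and 14.90) and COX6A1 (12.48 and 12.26) were detected, and COX4I2, COX6A2 and COX7A1 were not. For creatine kinase the muscle form was also off, with the brain form CKB at log2 levels of 13.22 and 13.10 and the muscle form CKM at 4.84 and 4.79. This split did not hold for every pathway, since the muscle forms ENO3 and CPT1B were detected. Of 20 glutathione transferases 10 were detected, with MGST1 at 12.69 and 12.43. GSTP1, which is silenced by methylation of its promoter in most prostate cancers, was not detected, with log2 levels of 4.91 and 4.75.

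Detection went with the letters of the promoter. CpG dinucleotides are scarce in most of the human genome because methylated cytosine mutates readily, and promoters of widely used genes keep them. A promoter from 250 bases before to 50 bases after the start was called CpG-rich when its observed over expected CpG was at least 0.6 and its GC content at least 50%. Such promoters were matched for 13567 genes, 80.2% of those named. Of 8876 CpG-rich genes 5344 were detected (60.2%), and of 4691 others 944 (20.1%). The share detected was 10.7% for an observed over expected CpG below 0.2, 29.6% between 0.4 and 0.6, and 70.1% at 1 or above. This relation is given as a description across genes.

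The lists were unlike each other in this share, which was not tested. Among detected genes 85.0% had a CpG-rich promoter, and among detected TCA cycle genes 28 of 29 had one. Of the 20 detected luminal genes 16 had a matched promoter, and 5 of these were CpG-rich (31.3%). The windows of KLK2, KLK3 and KLK4 had an observed over expected CpG of 0.109, 0.0719 and 0.144. For contrast, the 250 bases before RPL41, the brightest gene, and before GSTP1, which was not detected, are printed with each CpG in capitals, from chr12:56116383-56116632, plus strand and chr11:67583562-67583811, plus strand (GRCh38.p14).
RPL41: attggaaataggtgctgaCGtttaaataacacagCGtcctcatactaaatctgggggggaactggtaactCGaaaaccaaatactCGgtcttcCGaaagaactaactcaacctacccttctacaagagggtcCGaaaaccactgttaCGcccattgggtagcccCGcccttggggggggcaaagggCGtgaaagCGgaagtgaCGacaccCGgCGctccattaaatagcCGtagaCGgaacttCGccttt
GSTP1: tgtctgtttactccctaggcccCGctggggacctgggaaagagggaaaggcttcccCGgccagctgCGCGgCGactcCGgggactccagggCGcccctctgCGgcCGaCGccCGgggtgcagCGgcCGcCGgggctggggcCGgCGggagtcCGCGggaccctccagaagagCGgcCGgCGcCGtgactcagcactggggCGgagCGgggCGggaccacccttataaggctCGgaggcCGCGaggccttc
RPL41 has 16 CpG in these bases and GSTP1 has 28, and over the whole window their observed over expected CpG was 0.974 and 0.879. Both are CpG-rich by the rule, and 1 of them was off. Methylation was not measured.

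The overexpressed SKP2 was bright on all 3 of its probes, with log2 levels of 13.52 and 13.57, of 12.82 and 12.86, and of 11.70 and 11.92. With no parental sample, how much of this comes from the transgene cannot be told apart from the cells' own transcript. Of 33 genes of the SKP2 ligase and G1 regulators 26 were detected (78.8%). CKS1B, the cofactor with which SKP2 binds p27, had log2 levels of 11.36 and 10.96, and CDKN1B, the gene of p27 itself, had 8.91 and 9.04. CCND1, cyclin D1, had log2 levels of 13.09 and 13.10 and MYC had 12.24 and 12.19. CDKN1A (p21), CDKN2A and CDK6 were detected, and CCND2, cyclin D2, was not.

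Among 37 other genes tied to prostate cancer 19 were detected. The hepsin gene HPN had log2 levels of 9.68 and 9.51 and EZH2, the histone methyltransferase of the Polycomb complex, had 9.39 and 9.61. The ETS genes ERG and ETV1 were not detected, at log2 levels of 5.22 and 5.20 and of 4.73 and 4.74, nor was the prostaglandin synthase PTGS2. ETV1 was read by 1 probe, assigned to 1 of the 18 RefSeq transcripts of the gene. Its other transcripts may have gone unread, so these values do not show that ETV1 was off. Of 47 cancer testis antigens, genes normally confined to the germ line, 12 were detected (25.5%). GAGE4 had log2 levels of 11.95 and 11.94, MAGEA12 had 10.74 and 11.06, and PRAME had 10.51 and 10.27. GAGE and MAGE genes have near-identical copies, so which copy gave the signal is uncertain.

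Lists that should be on in any cell, and lists that should be off in this one, marked the range. Cytosolic ribosomal proteins were detected in 66 of 71 cases (93.0%) and proteasome subunits in 29 of 34 (85.3%). Of 372 olfactory receptors 3 were detected (0.806%), OR8G5, OR52A5 and OR51T1, and of 65 keratin-associated proteins of hair 1 was (1.54%). All 4 of these lost their call at a detection p under 0.001. Basal, leukocyte and keratin lists lay nearer to the olfactory receptors than to the 44% of all genes.

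The 2 vehicle samples were close to each other. Over detected genes the difference between them had an SD of 0.184 on the log2 scale and a median size of 0.112, and 4 genes were at least 2-fold apart. BAMBI, a decoy receptor that dampens TGF-beta signals, was higher in sample 2, with log2 levels of 11.00 and 12.16. SLC30A4, GDF15 (10.89 and 9.84) and SMCO4 (11.11 and 10.07) were higher in sample 1. The next 6 were COL7A1, ID1, HES6, UGT2B17, GSTA1 and TOX3, of which COL7A1 (7.09 and 8.09) and ID1 (7.55 and 8.53) were higher in sample 2. Levels of these 10 genes rest on 2 samples that lie apart.

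**Figure D5:**
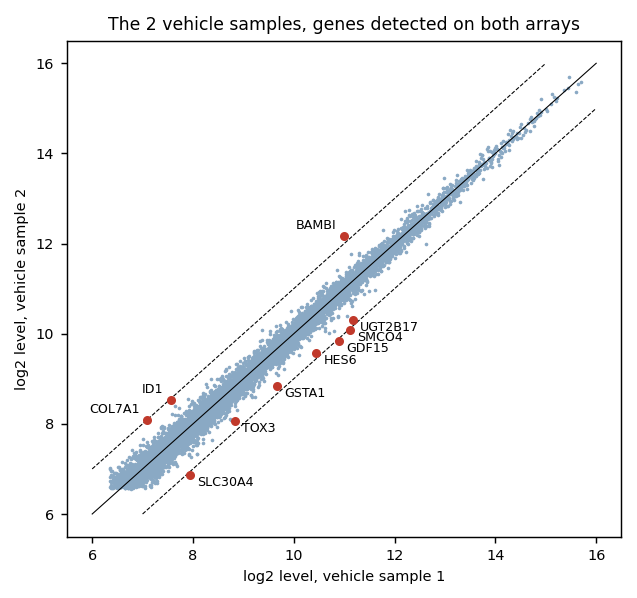
Log2 level in vehicle sample 1 (x axis) against vehicle sample 2 (y axis) for genes detected on both arrays, with equality as a solid line, 2-fold differences as dashed lines and the 10 most different genes in red. Points hug the solid line, with an SD of the difference of 0.184, and BAMBI is the gene farthest from it.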

How the data were processed

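RNA of the 2 vehicle samples, 1 array each, was measured on Illumina bead arrays. Groups were taken from the labels, and the study's methods add the subline and the time. The authors deposited 1 intensity per probe and array, not normalized, with a detection p-value from their software against negative controls. The authors also deposited normalized log2 values of the same arrays, used here only as an alternative. The normalization behind these log2 values is not given in the sources used here.

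All 12 arrays were processed together by neqc (limma 3.58.1, R 4.3.3), which estimates background from the detection p-values, adds an offset (16 here), equalises the distributions across arrays by quantiles and takes log2. This step was tested on simulated data. Probes were named from the platform annotation: 21834 of 24526 named 1 gene and 2692 were unnamed here. A gene's level was that of its brightest probe over both arrays. Symbols were updated, and promoters taken, from RefSeq tables of GRCh38.p14.

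No test was made, since 1 group has no contrast. With 2 arrays the precision is limited, and whether the 2 samples came from separate cultures is not stated, so their spread may be technical. The text names the 30 brightest genes, the 10 that differ most between samples, the key genes of 38 lists and the 6 brightest detected genes of a list. Members, lists and the promoter classes were chosen with earlier results of these data known. Alternatives were other detection limits, scalings and 1 sample alone.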

Additional observations from a re-analysis of the deposited data

How the results depend on the processing

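The count of detected genes moved by less than 1.5 times under each alternative, from 6250 when every named probe had to be detected and 6436 at a detection p under 0.001 to 9438 at a detection p under 0.05, and was 7827 and 7481 with sample 1 or sample 2 alone. Of the 30 brightest genes 28 or more stayed among them under other scalings and with 1 sample alone. The number of genes at least 2-fold apart between the samples was 2 with the deposited normalized log2 values and 11 over all named genes, detected or not, instead of 4. With stricter CpG limits (0.75 and 55%) the share of CpG-rich genes detected was 62.4%. Of 152 list counts under alternatives 16 moved by over 1.5 times, all in lists with 9 or fewer detected genes, such as nuclear receptors (18 at a detection p under 0.05). For those the cause was the looser or stricter limit itself or the use of 1 array. No paired analysis was possible because only 1 group was described. Low signal limits the calls near the threshold: 1998 genes had a higher detection p between 0.01 and 0.05.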

Other observations

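Some of the genes that differed between the vehicle samples belong to the same family or pathway. All 6 detected UGT2B enzymes were higher in sample 1, by a median of 0.53 on the log2 scale. Of 10 detected glutathione transferases 7 were higher in sample 1 and 3 in sample 2, with a median difference of 0.14. Of 6 detected targets of BMP and SMAD signals, 5 were higher in sample 2 (BAMBI, ID1, ID2, ID3 and SMAD7), and ID3 had log2 levels of 9.37 and 10.08. BAMBI and ID1 are among the 10 most different genes above, so their direction adds nothing. The differences of ID2 and SMAD7, sample 1 minus sample 2, were -0.103 and -0.121, near the median size of 0.112 over detected genes. Of 6 detected stress genes other than GDF15, 3 were higher in sample 1 and 3 in sample 2, with ATF4 at log2 levels of 13.88 and 13.91. Of 4 antioxidant genes 3 were higher in sample 1. Over all detected genes 49.6% were higher in sample 1. These 5 groups were chosen after the values were seen, the UGT2B genes share sequence, and 2 samples allow no test.

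Gene families set by symbol, also after the values were seen, were used unevenly. Mitochondrial ribosomal proteins were detected in 74 of 76 cases, zinc finger genes named ZNF in 196 of 421 and solute carriers in 125 of 323. Of 85 potassium channel genes 7 were detected, of 66 protocadherins 1, of 37 chemokines 1 (CXCL16), and of 22 FGF ligands and 26 taste receptors none at a detection p under 0.01. GATA2 was the 1 detected member of 6 GATA factors, and SOX4, SOX13 and SOX9 were those of 19 SOX factors. By chromosome the share detected ran from 36.9% on the X chromosome to 53.6% on chromosome 16.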
